A study of Mus musculus with 35 samples.

Results

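Lung gene expression was set side by side in 5 mice that inhaled styrene at 5 ppm and 5 mice kept in clean air. These 10 arrays were picked out of the 35 of the series by the concentration in the sample titles. The animals were adult males of the outbred CD-1 stock with no genetic change or other treatment named, and each gave whole-lung RNA to 1 array with probes near the 3′ end of transcripts. All were killed on the morning after their last exposure. The length of that exposure is given in conflicting ways, as 6 hours on 1 day in the protocol and the titles and as 5 days in the characteristics. The neighbouring groups at 10 ppm and at 1 ppm, with 5 mice each, serve here as further reference points. Values are log2 signals, so a difference of 1 is a 2-fold difference in signal, and 17097 genes were measured, each by its brightest probe set.

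Styrene is an industrial monomer that the mouse lung oxidises itself. Club cells, the secretory cells of the small airways, carry the cytochromes CYP2F2 and CYP2E1, which turn styrene into styrene oxide, a reactive epoxide. Microsomal epoxide hydrolase, the product of Ephx1, and glutathione transferases clear the epoxide, and the transcription factor NRF2 drives many of the genes of this defence. A lung exposed to such a compound can also show changes in airway and alveolar cells, in resident immune cells, in cell division and in interferon-induced genes.

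The arrays of the 5 ppm and air groups stood well apart before any gene was tested. The correlation across all probe sets lay between 0.987 and 0.991 for pairs of 5 ppm mice, between 0.968 and 0.988 for pairs of air mice, and between 0.854 and 0.942 for pairs made of a mouse from each. The interquartile range of the signals on an array was 3.42 to 3.54 log2 at 5 ppm and 2.94 to 3.16 log2 in air. The leading component of the differences among mice within their groups, called the array axis below, carried 18.8% of that variance. The 5 ppm arrays scored -1.41 to -1.04 on it and the air arrays 0.65 to 1.91, with no overlap. A fit that adjusts for this axis, the axis-adjusted fit below, is therefore extrapolated, and in it the axis and the exposure cannot be told apart. No label or header dates the arrays, so that a batch running with the groups cannot be told apart from the exposure. The p-values measure variation among the animals of a group and nothing else, and precision is bounded by how many arrays there are. The lung identity of the samples was plain in the surfactant gene Sftpc, which lay between 13.74 and 13.77 log2 at 5 ppm and between 13.69 and 13.82 log2 in air.

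Of the 17097 genes, 13169 (77.0%) passed limma's moderated test at an adjusted p under 0.05, with 5060 (29.6%) higher at 5 ppm and 8109 (47.4%) lower. The groups did not overlap at all for 9894 genes (57.9%). Of the 5926 genes with several probe sets that passed, 608 (10.3%) had another probe set that passed in the opposite direction. The median change over all genes was -0.23 log2. Quantile normalization moved that median to -0.06 and centring on array medians moved it to -0.33, so small falls are relative to a shifted centre. In the axis-adjusted fit 2777 genes (16.2%) passed, 1123 (6.57%) of them higher and 1654 (9.67%) lower. Among the 9823 genes with a mean of at least 5 log2, 4287 were higher and 4393 lower, nearer to balance than over all genes. That mean is taken over all arrays of the series, including those at 5 ppm and above. A gene's own change thus bears on whether it is kept. Ranked by the same mean, the dimmest quintile had 2.66% of its genes higher and 48.7% lower, and the next 15.4% and 55.3%. From the middle quintile up the shares were 44.5% and 41.1%, 43.5% and 45.7%, and 41.9% and 46.35%. The tilt to falls thus lay mainly in the dimmer quintiles, with the same limit on the ranking. Quantile normalization gave 5289 higher and 6029 lower over all genes. Every count of members below is to be read against the shares over all genes and against those of the level quintiles. Of the 731 measured list genes 301 rose and 276 fell, so a list can exceed 29.6% higher without exceeding genes of like level. The gene lists were chosen with earlier results of these data known, so a large share in a list is a description and not independent evidence.

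The 10 largest rises at 5 ppm were 2 interferon-inducible GTPases and 8 genes of other kinds, taken among genes whose groups did not overlap. Hltf, a helicase-like factor that remodels stalled replication forks, read 8.19, 8.50, 8.51, 7.99 and 8.62 log2 in the 5 ppm mice, against 4.90, 5.14, 4.67, 4.46 and 5.22 log2 in the air mice. The lowest 5 ppm mouse lay far above the highest air mouse, and the fitted rise was 3.48 ± 0.29 log2 (SE, n = 5 per group), or 11.2-fold (adjusted p = 2.09e-12, limma). Ccdc88a, whose product girdin binds actin in migrating cells, read 6.90, 6.98, 6.90, 6.76 and 6.97 log2 at 5 ppm and 3.34, 3.86, 3.46, 3.71 and 3.90 log2 in air. The 5 ppm mice were tightly grouped and the rise was 3.25 ± 0.26 log2, or 9.49-fold. Lin7c, a scaffold protein of cell junctions, rose by 3.40 ± 0.24 log2, and the selective autophagy receptor gene Tax1bp1 rose by 3.21 ± 0.29 log2. Cops2, a subunit of the COP9 signalosome that trims NEDD8 from ubiquitin ligases, Taf15, an RNA-binding protein of the FET family, and the tetraspanin gene Tspan2 rose by 3.20, 3.19 and 3.17 log2. Zfp280d, a zinc finger gene, rose by 3.42 log2 in its brightest probe set, while its other probe set did not pass the test. All probe sets of Hltf, Ccdc88a, Tax1bp1, Taf15 and Tspan2 were called higher, but the size of the rise depended on the probe set. The smallest rises were 1.40, 0.74, 1.30, 1.59 and 1.79 log2 in that order. The axis-adjusted change of Cops2 was -0.38 log2 and was not called, and among these 10 only Lin7c, Taf15 and Tspan2 still passed, at 1.06, 1.71 and 1.27 log2.

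The 10 largest falls at 5 ppm held 2 subunits of platelet receptors beside genes of metabolism and the cell surface. They too were taken among called genes whose groups did not overlap. Ocel1, a gene with an occludin-like domain, read 5.37, 6.70, 7.47, 7.00 and 7.11 log2 at 5 ppm, against 9.29, 9.64, 9.48, 9.32 and 9.11 log2 in air, with 5 ppm mouse 1 the lowest of all. Gchfr, which encodes the feedback regulator of the first enzyme of tetrahydrobiopterin synthesis, read 5.50, 5.43, 5.59, 5.71 and 5.15 log2 at 5 ppm and 8.68, 8.39, 8.03, 7.80 and 7.34 log2 in air. The changes of Ocel1 and Gchfr were -2.64 ± 0.35 log2 and -2.57 ± 0.24 log2. Armc6, an armadillo repeat gene (-2.62), Gpc1, a heparan sulphate proteoglycan of the cell membrane (-2.49), S1pr4, a lymphocyte receptor for sphingosine 1-phosphate (-2.48), Ptk7, a receptor of planar cell polarity (-2.46), and Fscn1, which bundles actin (-2.44), fell as well. The muscle creatine kinase gene Ckm read 4.86, 4.60, 4.04, 4.82 and 5.23 log2 at 5 ppm and 9.29, 6.38, 7.26, 6.59 and 6.50 log2 in air, where mouse 1 stood well above the rest. Its change of -2.50 ± 0.57 log2 turned to 0.91 log2, not called, after axis adjustment. The other probe set of Ckm was called lower at -0.37 log2. All 4 probe sets of Fscn1 were called lower, the smallest change being -0.38 log2. Of the 15 measured markers of heart and skeletal muscle, 0 rose, 6 fell and 9 did not pass the test. Their summed level (the log2 of the members' summed linear signals) was 10.0 to 11.5 at 5 ppm and 11.1 to 13.3 in air. Myl3 and Acta1, genes of muscle myosin and actin, fell by 1.36 and 0.95 log2. The part of stray muscle tissue in the fall of Ckm was not tested.

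**Figure D1:**
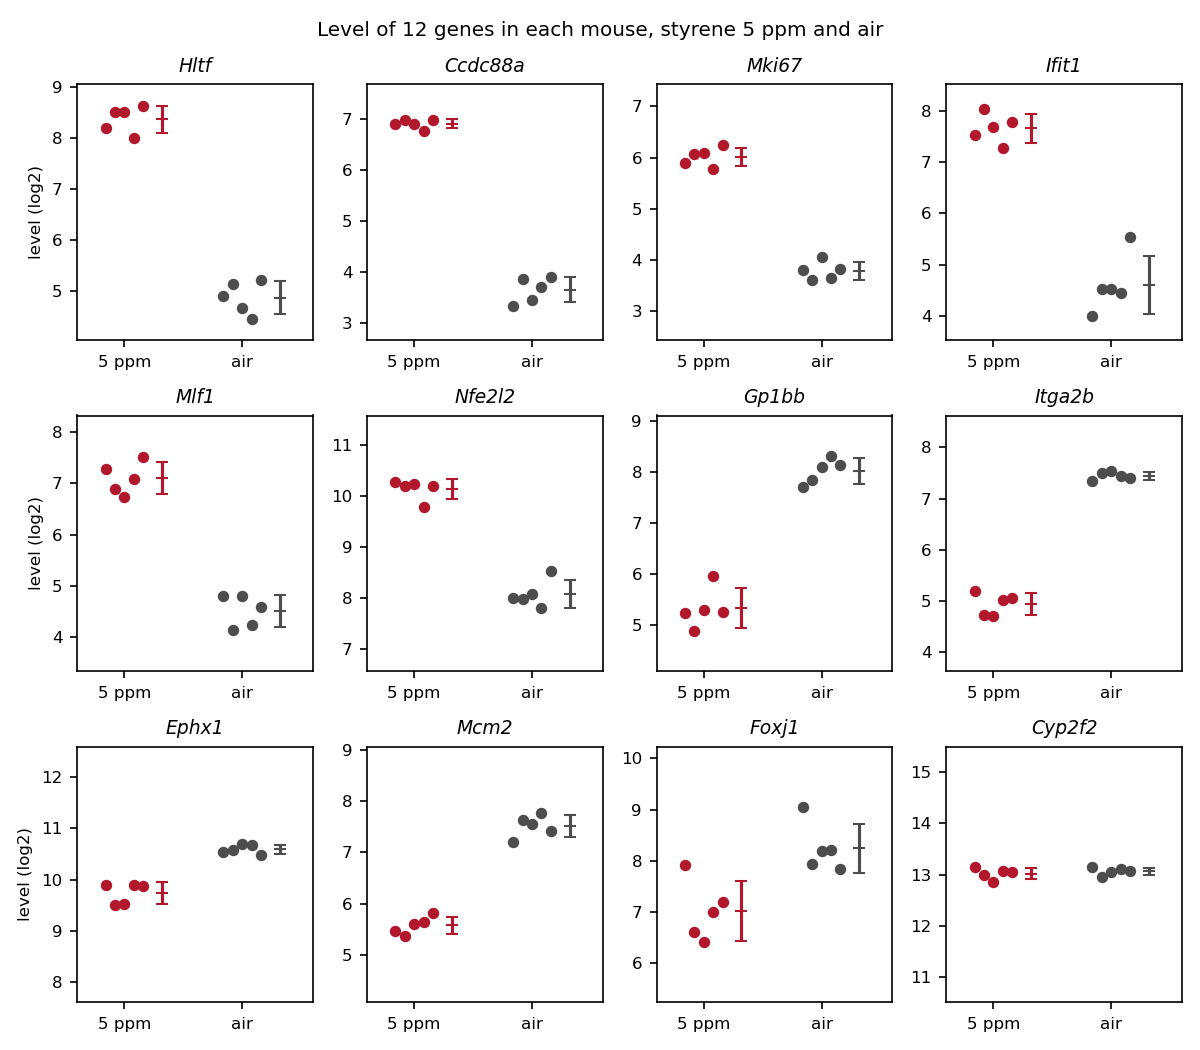
Level (log2 signal) of 12 genes in each mouse at 5 ppm (red, left) and in air (grey, right), 1 point per mouse, with the mean and SD of the 5 mice beside the points. The groups are separate for the 10 genes from Hltf to Mcm2, with Hltf at 7.99 to 8.62 log2 at 5 ppm and 4.46 to 5.22 log2 in air, while the ranges overlap for Foxj1 and for Cyp2f2.

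The interferon-inducible GTPases rose at 5 ppm and differed widely between the mice of that group. These large proteins, the immunity-related GTPases and the guanylate-binding proteins, are induced above all by interferon gamma and attack vacuoles that hold microbes. Promoters of 3 of them are printed because the motif that interferon-activated factors bind, the interferon-stimulated response element, lies in each. The windows run from 250 bases before to 50 bases after the gene start, are RefSeq sequence of build GRCm38.p6, and are written 5′ to 3′ on the strand of the gene. Capitals mark matches on either strand to this element, searched as GAAA, any 2 bases and GAAA, with overlapping matches run together. In Tgtp1 they also mark a gamma-activated site, searched as TTC, any 3 bases and GAA. The windows lie at chr11:48871371-48871670 on the minus strand for Irgm1, at chr11:48992197-48992496 on the minus strand for Tgtp1, and at chr3:142620413-142620712 on the plus strand for Gbp2.
Irgm1: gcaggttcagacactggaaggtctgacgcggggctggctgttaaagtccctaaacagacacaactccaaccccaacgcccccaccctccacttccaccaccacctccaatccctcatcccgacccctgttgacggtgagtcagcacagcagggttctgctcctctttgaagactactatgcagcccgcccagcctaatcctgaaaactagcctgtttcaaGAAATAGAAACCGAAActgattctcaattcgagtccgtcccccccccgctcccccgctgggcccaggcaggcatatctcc
Tgtp1: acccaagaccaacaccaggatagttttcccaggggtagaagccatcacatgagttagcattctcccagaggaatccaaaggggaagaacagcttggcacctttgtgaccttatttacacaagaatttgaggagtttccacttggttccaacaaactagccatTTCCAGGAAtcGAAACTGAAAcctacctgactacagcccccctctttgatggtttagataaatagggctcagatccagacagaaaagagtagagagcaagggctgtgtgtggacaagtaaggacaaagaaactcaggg
Gbp2: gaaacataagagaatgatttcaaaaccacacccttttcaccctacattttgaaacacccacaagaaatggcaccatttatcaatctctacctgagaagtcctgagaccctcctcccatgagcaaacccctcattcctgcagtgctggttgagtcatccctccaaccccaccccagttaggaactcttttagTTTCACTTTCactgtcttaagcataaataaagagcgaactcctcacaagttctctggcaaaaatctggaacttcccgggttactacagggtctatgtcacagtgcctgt

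Irgm1 holds 2 overlapping matches to the element, Tgtp1 holds 1 that follows a gamma-activated site, and Gbp2 holds 1 on the opposite strand, written as TTTCACTTTC. Promoters were at hand for 7 of the 11 measured GTPases, and all 7 held the element, against 1131 of 32851 promoters (3.443%) in the RefSeq table. The gamma-activated site was in 4 of the 7, against 8.298% of all promoters. Among the interferon-stimulated antiviral genes the element was in 9 of 17 promoters and the gamma-activated site in 3 of 17. A match describes letters in this window and no binding was measured.

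In the 5 ppm mice 10 of the 11 measured GTPases rose against air, by 1.55 to 3.49 log2, and 1 fell, with a median over the 11 of 2.49 log2 against -0.23 log2 for all genes. Iigp1, an immunity-related GTPase that coats parasite vacuoles, read 8.13, 9.59, 7.82, 8.14 and 10.96 log2 at 5 ppm, against 5.12, 5.33, 5.13, 6.08 and 5.53 log2 in air. Tgtp1, a T-cell-specific GTPase of the same family, read 8.56, 10.78, 9.30, 9.08 and 11.55 log2 at 5 ppm, against 6.55, 6.20, 6.19, 7.33 and 7.14 log2 in air. Mouse 5 was the highest and mouse 2 the next at 5 ppm for both genes, and every 5 ppm mouse lay above every air mouse. The rises were 3.49 ± 0.39 log2 for Iigp1 (adjusted p = 1.35e-09, limma) and 3.17 ± 0.37 log2 for Tgtp1 (adjusted p = 3.36e-09, limma). Gbp10 and Gbp2, guanylate-binding proteins, rose by 3.45 ± 0.43 and 2.06 ± 0.25 log2. Irgm1, which governs the other immunity-related GTPases and autophagy, read 6.67, 7.69, 6.68, 6.49 and 8.21 log2 at 5 ppm and 4.97, 4.84, 4.66, 4.83 and 5.39 log2 in air. It rose by 2.21 ± 0.23 log2, again with mice 5 and 2 the highest at 5 ppm. Gbp4 was the exception, at 3.44 to 3.99 log2 in the 5 ppm mice and 4.15 to 4.91 log2 in the air mice, with a change of -0.93 ± 0.12 log2 near the low end of the scale. Members of this family are close paralogs, and binding of a probe set to the RNA of another member was not tested.

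Mice 2 and 5 were the top 2 of the 5 ppm group for all 10 GTPases that rose. Those 10 were picked as higher at 5 ppm than in air, so a 5 ppm mean above the air mean follows from the choice. The summed level of all 11, Gbp4 included, was 11.2 to 13.8 log2 at 5 ppm and 9.32 to 10.1 log2 in air. The mean of these 10 genes was 7.50, 9.11, 7.61, 7.57 and 10.2 log2 in the 5 ppm mice, 5.51, 5.65, 5.73, 5.96 and 6.31 log2 in the air mice, and between 6.68 and 7.38 log2 in the 10 ppm mice. The gap between the highest and lowest mouse had a median of 2.83 log2 over these genes at 5 ppm, 1.04 log2 in air and 0.773 log2 at 10 ppm. With mice 2 and 5 left out, a choice made after seeing these values, 10 of 11 GTPases still rose and the median was 1.67 log2. The interferon gamma gene Ifng itself lay between 2.88 and 3.31 log2 at 5 ppm and between 3.04 and 3.77 log2 in air, and its change of -0.20 ± 0.12 log2 did not pass the test (adjusted p = 0.128, limma). Of 15 measured markers of T and NK cells 5 rose and 5 fell, with a summed level of 9.53 to 10.8 log2 at 5 ppm and 9.65 to 10.2 log2 in air. Their part in the GTPase levels was not tested. After axis adjustment 2 of the 11 passed, both higher, Tgtp1 at 3.16 log2 and Irgm1 at 1.76 log2.

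**Figure D2:**
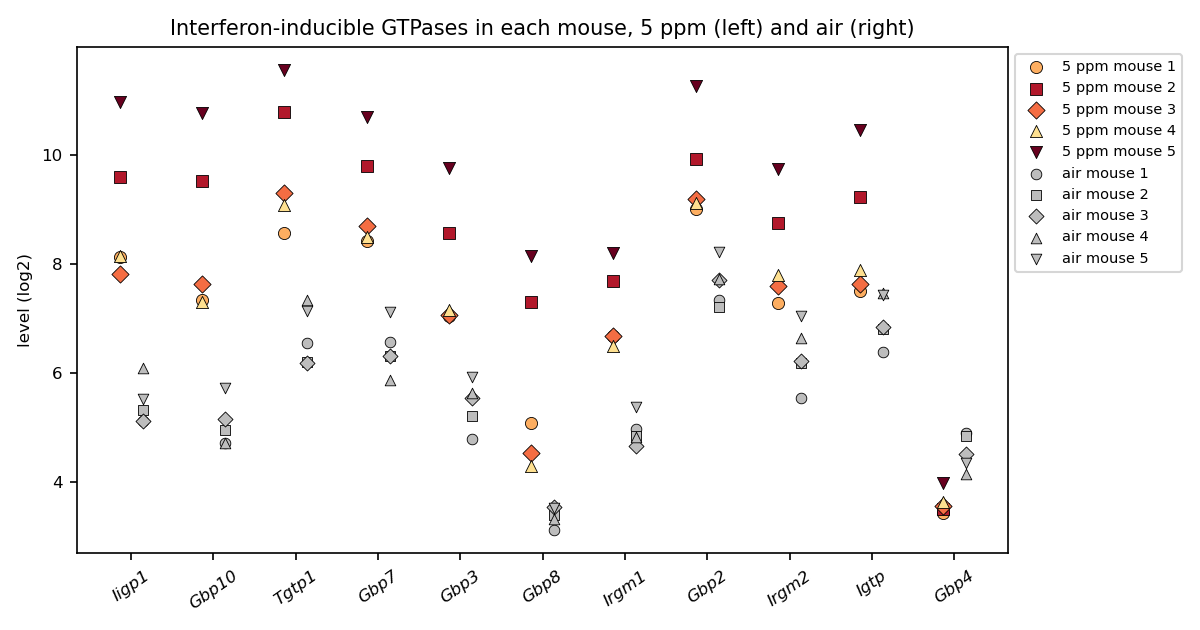
Level (log2 signal) of the 11 measured interferon-inducible GTPases in each mouse, with the 5 ppm mice in colour on the left and the air mice in grey on the right of each gene and a symbol for each mouse number. Mouse 5 and mouse 2 are the 2 highest of the 5 ppm group in 10 genes, with Iigp1 at 10.96 and 9.59 log2, and Gbp4 alone is lower at 5 ppm.

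The interferon-stimulated antiviral genes moved less evenly. Among 25 measured members there were 14 rises and 6 falls, with a median of 0.66 log2. Ifit1, which binds viral RNA without a proper cap, read 7.54, 8.04, 7.69, 7.28 and 7.79 log2 at 5 ppm and 3.99, 4.52, 4.53, 4.43 and 5.54 log2 in air, with no overlap. It rose by 3.06 ± 0.26 log2, or 8.36-fold (adjusted p = 1.87e-12, limma). Trim30a (2.55), the ADP-ribosyltransferase gene Parp14 (2.22) and Ddx58, which encodes the viral RNA sensor RIG-I (1.52), rose too. Against this direction, Ifi35 fell by 1.04 log2 and Irf7, the master regulator of type I interferon, by 0.89 log2, and after axis adjustment Irf7 was at 0.12 log2 and not called. Mice 2 and 5 were the top 2 at 5 ppm for 12 of the 14 genes that rose, and without them 13 members rose and 7 fell. After axis adjustment 1 of the 25 passed, higher, and the median was 0.22 log2. Of 15 signalling genes upstream 4 rose and 10 fell. The kinase gene Jak1 rose by 2.28 ± 0.18 log2 while its partner Tyk2 fell by 1.03 ± 0.10 log2. The transcription factor genes Irf8 and Irf3 fell by 1.54 and 1.15 log2. Irf1 changed by -0.35 ± 0.11 log2 with overlapping groups and was at 0.07 log2 after axis adjustment.

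Antigen presentation showed no joint rise. Of 12 measured class I and immunoproteasome genes 3 rose and 5 fell. The peptide-trimming enzyme gene Erap1 and the chaperone gene Canx rose by 1.94 and 2.07 log2, while the immunoproteasome subunit gene Psmb10 and the peptide-loading gene Tapbp fell by 1.25 and 0.89 log2. Of 12 class II genes 2 rose and 7 fell, with a median of -0.59 log2. H2-DMa, which edits the peptides on class II molecules, read 7.62, 8.35, 7.82, 8.41 and 8.29 log2 at 5 ppm, against 9.85, 9.51, 9.74, 9.69 and 9.48 log2 in air. The groups were apart and the change was -1.56 ± 0.15 log2. H2-DMb1 and H2-DMb2, its partners, fell by 1.23 and 1.13 log2, and the class II protease gene Ctss rose by 1.58 log2. After axis adjustment 0 of the 12 class II genes passed by limma at an adjusted p under 0.05.

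The enzymes that handle styrene itself changed little or in mixed directions. Cyp2f2 read 13.15, 12.98, 12.85, 13.06 and 13.05 log2 in the 5 ppm mice and 13.14, 12.95, 13.06, 13.10 and 13.07 log2 in the air mice. The ranges overlapped almost wholly near the top of the array's scale, and the change was -0.04 ± 0.06 log2 (adjusted p = 0.504, limma). Cyp2e1 was scattered, at 6.48, 6.89, 5.03, 6.70 and 7.07 log2 at 5 ppm and 7.72, 5.81, 6.29, 7.56 and 6.55 log2 in air, and its change of -0.35 ± 0.74 log2 did not pass. Its axis-adjusted change was 4.47 log2 and passed (adjusted p = 0.0429), which is more than any gap between 2 of these 10 mice. Ephx1, the epoxide hydrolase, read 9.90, 9.51, 9.51, 9.89 and 9.87 log2 at 5 ppm, against 10.54, 10.57, 10.69, 10.67 and 10.48 log2 in air. It was lower in every 5 ppm mouse, by 0.85 ± 0.10 log2, so that the air level was 1.81-fold that at 5 ppm (adjusted p = 1.29e-09, limma). After axis adjustment Ephx1 was at -0.46 log2 and not called.

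Over the list of 11 styrene P450s and related enzymes 3 rose (27.3%), 4 fell (36.4%) and 4 did not pass, against 29.6% and 47.4% over all genes. Cyb5a, the cytochrome b5 that feeds electrons to P450s, rose by 1.08 ± 0.11 log2. Cyp1a1 and Cyp1b1, targets of the aryl hydrocarbon receptor, went opposite ways, at -1.78 ± 0.43 and 1.40 ± 0.29 log2. Cyp1a1 was at 6.18 log2 in 5 ppm mouse 1 and between 4.49 and 4.85 log2 in the other 4 mice at 5 ppm, against 5.76 to 7.24 log2 in air. That mouse made the groups overlap, and of the 3 probe sets of Cyp1b1 2 were called higher and 1 lower. Cyp2b10, a P450 of club cells, was at 0.24 ± 0.12 log2 and did not pass (adjusted p = 0.0688, limma), but passed at 0.30 log2 without air mouse 4 and at 0.32 log2 without air mouse 5.

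Glutathione and redox genes were called in both directions, as were members of 42 of the 43 lists. Of 19 glutathione transferases and genes of glutathione synthesis 6 rose (31.6%), 8 fell (42.1%) and 5 did not pass. Those shares are near the 29.6% and 47.4% over all genes. Mgst3, a membrane-bound glutathione transferase, read 9.21, 8.83, 8.96, 9.06 and 8.73 log2 at 5 ppm and 11.01, 10.47, 10.76, 10.48 and 10.16 log2 in air, and fell by 1.62 ± 0.12 log2. Its relative Mgst1 read 12.32, 12.22, 12.11, 12.14 and 12.33 log2 at 5 ppm and 10.77, 10.58, 11.29, 11.17 and 11.56 log2 in air, and rose by 1.15 ± 0.12 log2. The 2 genes thus changed in opposite directions with no overlap between groups, although only 1 of the 2 probe sets of Mgst1 was called. Gstt2, of the theta class, fell by 1.33 log2, and Gsta4, which conjugates the lipid aldehyde hydroxynonenal, and the mitochondrial Gstk1 each rose by 1.13 log2.

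Among 18 NRF2 targets 8 rose and 7 fell. Nfe2l2, the gene of NRF2 itself, read 10.28, 10.20, 10.23, 9.78 and 10.19 log2 at 5 ppm and 8.01, 7.98, 8.09, 7.80 and 8.53 log2 in air, with 5 ppm mouse 4 the lowest of its group and still above every air mouse. It rose by 2.05 ± 0.14 log2, or 4.15-fold (adjusted p = 1.23e-14, limma), and by 1.06 log2 after axis adjustment. Txn1, thioredoxin, and Prdx1, a peroxiredoxin, rose by 1.21 and 1.22 log2. Osgin1, an oxidative stress growth inhibitor, fell by 1.68 ± 0.11 log2. Hmox1, which degrades haem, fell by 0.74 ± 0.22 log2 and Nqo1, a quinone reductase, rose by 0.71 ± 0.20 log2, each with overlapping groups. Of 19 aldehyde dehydrogenases and other phase I enzymes 9 rose and 8 fell. Aox3, an aldehyde oxidase, and Aldh1a7 rose by 2.21 and 2.06 log2, and Aldh3b1 and the mitochondrial Aldh2 fell by 1.14 and 0.70 log2.

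**Figure D3:**
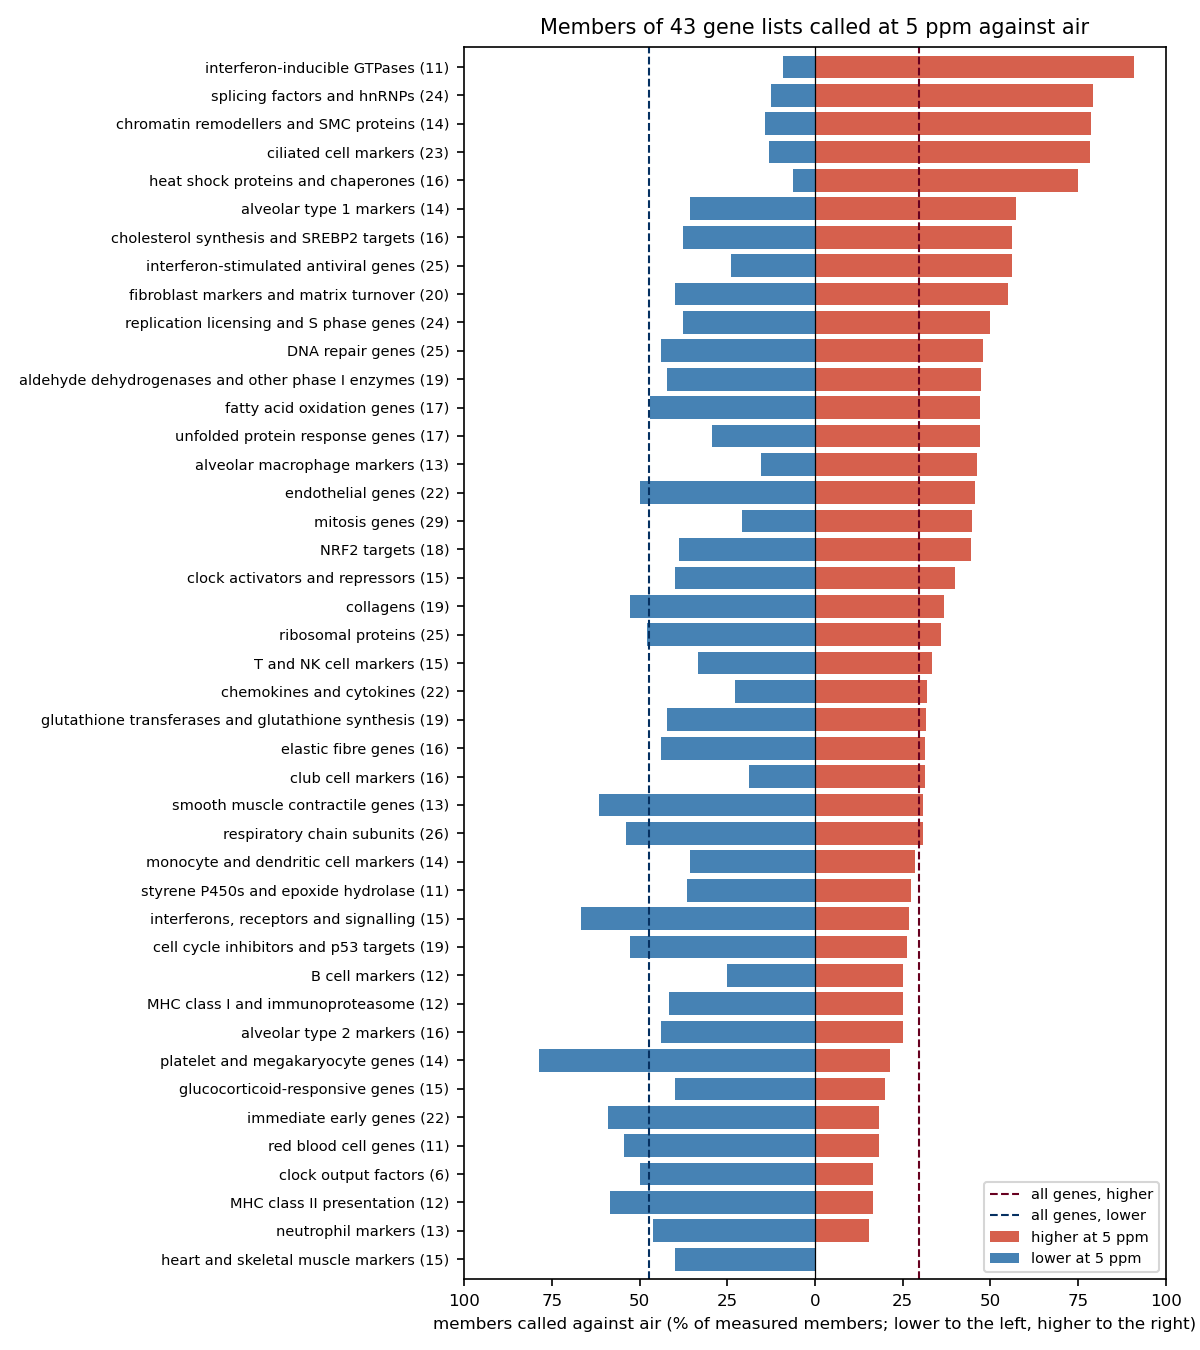
Share of the measured members of each of 43 gene lists that were called higher (right, red) or lower (left, blue) at 5 ppm against air, as % of the members, with the number measured in brackets. Dashed lines mark the shares over all genes, 29.6% higher and 47.4% lower, and 42 of the 43 lists have members called in both directions. The share higher was 2.66% in the quintile of genes with the lowest mean level and 41.9% in that with the highest.

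Airway and alveolar cell markers were measured in bulk tissue, where fewer cells of a type and less RNA per cell cannot be told apart. The 16 markers of club cells included 5 that rose and 3 that fell. Scgb1a1, the main club cell secretory protein, read 13.93, 13.84, 13.86, 13.85 and 13.92 log2 at 5 ppm and 13.73, 13.68, 13.72, 13.73 and 13.83 log2 in air. The difference, at the top of the scale, was 0.15 ± 0.05 log2 (adjusted p = 0.012, limma). It was 0.07 log2 and not called after quantile normalization, and -0.03 log2 and not called after axis adjustment. Gabrp, a GABA receptor subunit of secretory cells, and the tight junction gene Cldn10 rose by 2.22 and 1.01 log2, and the uroplakin gene Upk3a fell by 1.24 log2.

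Ciliated cell markers moved together more than most lists, with 18 of 23 higher, 3 lower and a median of 1.54 log2. Mlf1, a gene of the motile cilium program, read 7.28, 6.90, 6.74, 7.08 and 7.53 log2 at 5 ppm and 4.81, 4.13, 4.80, 4.24 and 4.59 log2 in air. It rose by 2.59 ± 0.22 log2, or 6.02-fold (adjusted p = 2.75e-12, limma), with no overlap. Ccdc39, a ruler for the spacing of dynein arms, rose by 2.88 ± 0.27 log2, Bbs5, a BBSome subunit, by 2.46 ± 0.15 log2, and Ift88, which carries cargo along the cilium, by 1.54 ± 0.15 log2. Foxj1, the transcription factor that switches on motile cilia, read 7.91, 6.60, 6.41, 7.00 and 7.19 log2 at 5 ppm against 9.05, 7.93, 8.19, 8.21 and 7.84 log2 in air. Only 5 ppm mouse 1 reached into the air range, and the change was -1.22 ± 0.31 log2. The abundant tubulin-linked markers Tppp3 and Tubb4b fell as well, by 0.91 and 0.24 log2, and the call of Tubb4b was lost when any 1 of 6 mice was left out (adjusted p = 0.0509 to 0.146). The summed level of the 23 genes was 12.6 to 12.9 log2 at 5 ppm and 12.8 to 13.3 log2 in air, below the direction of most members. After axis adjustment 9 of the 23 passed, all higher, and Foxj1 was at 0.48 log2 and not called.

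Alveolar type 2 cells, which secrete surfactant, and type 1 cells, which form the gas exchange surface, have marker genes whose signals reach the top of the array's scale, where a change could go unseen. The surfactant gene Sftpc, at that end, differed by -0.01 ± 0.05 log2 (adjusted p = 0.923, limma). Ager, the receptor that marks type 1 cells, read 13.47, 13.44, 13.51, 13.31 and 13.31 log2 at 5 ppm and 13.66, 13.63, 13.56, 13.56 and 13.54 log2 in air, a fall of 0.18 ± 0.06 log2 near the top of the scale. Of 16 type 2 markers 4 rose and 7 fell. The transcription factor gene Cebpa fell by 1.73 ± 0.12 log2 and the surfactant lipid enzyme gene Lpcat1 by 0.98 ± 0.09 log2. Cd36, a fatty acid receptor, rose by 2.02 ± 0.16 log2 and the lysozyme gene Lyz2 by 0.41 ± 0.07 log2. Of 14 type 1 markers 8 rose and 5 fell. Clic5, Cav1 of caveolae, Col4a3 of the alveolar basement membrane and the anchoring protein gene Akap5 rose by 2.11, 1.46, 2.20 and 2.18 log2, and the water channel gene Aqp5 fell by 0.96 log2. The axis-adjusted value of Akap5 was -0.22 log2 and not called.

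Markers of immune cells were mixed. The 13 markers of alveolar macrophages held 6 rises and 2 falls, with a median of 0.88 log2 and a summed level of 13.6 to 13.8 log2 at 5 ppm against 12.60 to 13.04 log2 in air. The mannose receptor gene Mrc1 read 9.50, 9.35, 9.67, 9.60 and 9.52 log2 at 5 ppm and 6.74, 7.09, 7.32, 6.78 and 7.20 log2 in air. It rose by 2.50 ± 0.26 log2, but was at -0.05 log2 and not called after axis adjustment. Pparg, the transcription factor of alveolar macrophage identity, rose by 1.80 ± 0.19 log2, and by 1.88 log2 with that covariate. Plet1 and Cd9 rose by 1.38 and 1.25 log2. Of 14 monocyte and dendritic cell markers 4 rose and 5 fell, and their median of -0.01 log2 became 0.16 log2 after quantile normalization. The complement genes C1qa and C1qb fell by 1.51 and 1.45 log2, but after axis adjustment C1qb was at 0.26 log2 and not called.

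Of 13 neutrophil markers 2 rose and 6 fell, and for all of them the groups overlapped. Mmp8, a neutrophil collagenase, read 3.89, 4.58, 4.33, 5.59 and 6.39 log2 at 5 ppm, against 3.81, 3.85, 3.85, 3.68 and 4.01 log2 in air. Mice 4 and 5 were the highest, and the rise was 1.12 ± 0.33 log2. Of 12 B cell markers 3 rose and 3 fell. Ms4a1, the CD20 antigen, read 5.96, 8.17, 8.08, 7.98 and 6.52 log2 at 5 ppm and 5.07, 4.24, 5.39, 3.95 and 5.75 log2 in air, a rise of 2.46 ± 0.60 log2, while the antigen receptor gene Cd79a fell by 1.16 ± 0.35 log2. Among T cell markers Cd3e fell by 1.27 and Cd3g rose by 1.11 log2, although both encode chains of the same receptor complex. Of 22 chemokines and cytokines 7 rose, 5 fell and 10 did not pass, and their median of 0.10 log2 was -0.00 log2 after centring on array medians. Cxcl15, the lung chemokine lungkine, read 12.91 to 13.01 log2 at 5 ppm and 11.91 to 12.25 log2 in air. The B cell attractant Cxcl13 and the alarmin Il33 rose by 2.10 and 1.43 log2 and Ccl17 fell by 1.24 log2. Il33 was at -0.12 log2 and Ccl17 at 0.53 log2 after axis adjustment, neither called.

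Platelet and megakaryocyte genes were the list with the largest share of falls, 11 of 14, with 3 higher and a median of -1.09 log2. Gp1bb, a subunit of the receptor for von Willebrand factor, read 5.25, 4.89, 5.31, 5.97 and 5.27 log2 at 5 ppm, against 7.70, 7.84, 8.10, 8.31 and 8.14 log2 in air. Itga2b, the alpha chain of the fibrinogen receptor, read 5.20, 4.73, 4.70, 5.02 and 5.06 log2 at 5 ppm, against 7.33, 7.51, 7.54, 7.43 and 7.40 log2 in air. All 5 ppm mice lay below all air mice for both genes, as their place among the largest falls required. The changes were -2.68 ± 0.32 log2 for Gp1bb (adjusted p = 6.19e-09, limma) and -2.50 ± 0.19 log2 for Itga2b (adjusted p = 1.39e-13, limma). Gp9 and Gp5, other subunits of the first receptor, fell by 1.93 and 1.71 log2, and Vwf, which endothelium also makes, by 1.36 log2. The summed level of the 14 genes was 11.1 to 11.7 log2 at 5 ppm and 12.3 to 12.5 log2 in air. In the axis-adjusted fit 6 of 14 still passed, all lower, with Gp1bb at -3.10 and Itga2b at -2.76 log2. The 3 that rose were the platelet chemokine gene Ppbp (1.28), the podoplanin receptor gene Clec1b (1.57) and the clotting factor gene F13a1 (1.86). Macrophages make F13a1 as well, and Ppbp was at -0.71 log2 and not called after axis adjustment.

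Of 11 red cell genes 2 rose (18.2%) and 6 fell (54.5%), against 29.6% and 47.4% over all genes. Hba-a1, the alpha globin gene, lay between 13.62 and 13.76 log2 at 5 ppm and between 13.68 and 13.79 log2 in air, and its change of -0.06 ± 0.05 log2 did not pass (adjusted p = 0.256, limma). Its signal lies at the top of the array's scale, where the highest gene mean is 13.81 log2, so a change could go unseen. It also weighs heavily in the list's summed level of 13.76 to 13.95 log2 at 5 ppm and 13.91 to 14.04 log2 in air. Slc4a1, the anion exchanger of the red cell membrane, read 4.06, 4.40, 5.23, 5.46 and 6.22 log2 at 5 ppm, against 7.32, 7.93, 6.94, 7.37 and 6.77 log2 in air, a fall of 2.19 ± 0.37 log2. Alas2, the first enzyme of haem synthesis in red cells, and Epor, the erythropoietin receptor, fell by 1.38 and 1.56 log2. The transferrin receptor gene Tfrc rose by 1.22 log2, and was at -0.23 log2 and not called after axis adjustment.

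Genes of cell division gave opposite signs within the same machinery. Mki67, a marker of cycling cells, read 5.89, 6.06, 6.09, 5.77 and 6.25 log2 at 5 ppm, against 3.81, 3.61, 4.05, 3.65 and 3.82 log2 in air. The groups were far apart, and the rise was 2.23 ± 0.15 log2, or 4.68-fold (adjusted p = 2.68e-14, limma). Top2a, a topoisomerase of mitosis, rose by 2.10 ± 0.16 log2 in its brightest probe set, but its other 2 probe sets were called lower. Smc4 and Smc2, the core of condensin, rose by 2.75 and 2.30 log2. Cdc20 and Ube2c, which act in the anaphase-promoting complex pathway that ends mitosis, fell by 1.35 and 1.00 log2. Of 29 mitosis genes 13 rose, 6 fell and 10 did not pass. In the axis-adjusted fit Mki67 was at 1.23 log2 and passed, Smc4 was at 0.07 log2 and did not, and Ube2c was at 0.37 log2, not called.

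In replication licensing and S phase 12 of 24 genes rose and 9 fell. The helicase subunit gene Mcm2 read 5.46, 5.36, 5.61, 5.63 and 5.81 log2 at 5 ppm and 7.20, 7.64, 7.55, 7.78 and 7.42 log2 in air. Mcm4, which sits in the same helicase ring, read 7.13, 7.45, 7.37, 7.45 and 7.67 log2 at 5 ppm and 4.36, 4.92, 5.12, 5.23 and 5.47 log2 in air. Mcm2 thus fell by 1.94 ± 0.16 log2 while Mcm4 rose by 2.39 ± 0.16 log2, each with no overlap, and both passed after axis adjustment at -1.02 and 1.22 log2. Cdt1, which loads the helicase, fell by 2.10 log2, and Pcna, the sliding clamp, rose by 1.05 log2.

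Of 19 cell cycle inhibitors and p53 targets 5 rose and 10 fell, shares close to those over all genes. Cdkn1a, which encodes the inhibitor p21, read 9.06, 8.20, 8.69, 8.65 and 8.93 log2 at 5 ppm and 9.87, 10.22, 9.51, 9.75 and 9.95 log2 in air, and fell by 1.15 ± 0.31 log2. Phlda3, Cdkn1c and Bbc3, which encodes the killer protein PUMA, fell by 2.02, 1.98 and 1.79 log2. Mdm2, the ubiquitin ligase that removes p53 and is itself a p53 target, rose by 2.09 ± 0.12 log2. DNA repair genes split 12 higher and 11 lower of 25, and their median of -0.04 log2 became 0.13 log2 after quantile normalization. Msh6, a mismatch repair protein, read 6.73, 6.69, 6.99, 6.82 and 7.05 log2 at 5 ppm and 4.05, 4.19, 4.22, 3.77 and 4.36 log2 in air, a rise of 2.73 ± 0.14 log2. Polk, a polymerase that copies past bulky adducts, rose by 2.27 log2, while Ercc1 of excision repair and Xrcc1 of single-strand break repair fell by 1.64 and 1.54 log2.

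Genes that package chromatin, splice RNA and fold proteins held some of the largest shares of rises. These lists were chosen with earlier results known, and Hltf, named above for its rise, is a chromatin member. Of 14 chromatin remodellers and SMC proteins 11 rose and 2 fell, with a median of 1.99 log2. Baz2b and Chd9, remodelling subunits, rose by 2.38 and 2.00 log2, and Smarcb1, a core subunit of the SWI/SNF complex, fell by 1.46 log2. Of 24 splicing factors and hnRNPs 19 rose and 3 fell, with a median of 1.82 log2. Slu7, needed for the second step of splicing, read 8.13, 8.11, 8.24, 7.89 and 8.24 log2 at 5 ppm and 5.18, 5.12, 5.27, 5.30 and 5.65 log2 in air, a rise of 2.82 ± 0.17 log2. Srsf10 and Srsf3, serine/arginine-rich splicing factors, rose by 2.63 and 1.87 log2 and Hnrnpk by 1.46 log2. U2af2, which reads the 3′ splice site, fell by 1.02 log2.

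Of 16 heat shock proteins and chaperones 12 rose and 1 fell, with a median of 2.00 log2. Hspa4, a nucleotide exchange factor for the cytosolic chaperones, read 9.24, 9.09, 9.09, 9.22 and 9.27 log2 at 5 ppm and 6.97, 7.01, 6.98, 6.57 and 7.30 log2 in air, a rise of 2.21 ± 0.16 log2. The mitochondrial Hspa9 rose by 2.06 log2, and Hspa5 and Hsp90b1, which work in the endoplasmic reticulum, by 1.96 and 2.03 log2. Among the 3 members that did not pass were Hspa1b and Hspb1, which heat induces. Hspa1b ranged from 8.43 to 12.08 log2 at 5 ppm and from 8.88 to 11.88 log2 in air, with a change of -0.00 ± 0.83 log2 (adjusted p = 0.999, limma), and Hspb1 was at 0.05 ± 0.21 log2 (adjusted p = 0.829, limma). The co-chaperone gene Bag3 fell by 0.98 ± 0.29 log2. In the axis-adjusted fit Hsp90b1 was at -0.17 log2 and Bag3 at 0.44 log2, neither called. The heat shock element, searched on both strands as GAA, TTC and GAA with any 2 bases between neighbours, was in 2 of 12 promoters of this list and in 0.6027% of all promoters. Of 17 genes of the unfolded protein response 8 rose and 5 fell. Dnajc3 and the sensor gene Atf6 rose by 2.10 and 1.87 log2, Eif2ak3, the sensor PERK, rose by 1.53 log2 in its brightest probe set while its other 2 were called lower, and Chac1, a target of the stress factor ATF4, fell by 2.34 log2.

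In the axis-adjusted fit 0 of the 14 chromatin genes were called higher and 1 lower, against 4 of 24 splicing genes and 2 of 16 chaperones called higher. Ribosomal protein genes were near balance at 9 higher and 12 lower of 25. Rpl7 rose by 1.77 ± 0.10 log2 and Rpl4 by 1.73 ± 0.12 log2, while Rpl36 fell by 0.78 ± 0.06 log2 and Rpl8 by 0.81 ± 0.07 log2. The summed level of the 25 genes was 17.0 to 17.1 log2 at 5 ppm and 17.1 log2 on each air array. Of 26 respiratory chain subunits 8 rose and 14 fell. Ndufs1 of complex I read 8.58, 8.58, 8.68, 8.52 and 8.72 log2 at 5 ppm and 6.20, 6.06, 6.30, 6.29 and 6.62 log2 in air. Uqcrc1 of complex III read 8.68, 8.60, 8.61, 9.10 and 8.64 log2 at 5 ppm and 11.20, 10.79, 10.65, 10.51 and 10.28 log2 in air. The rise of 2.32 ± 0.13 log2 and the fall of 1.96 ± 0.14 log2 both exceeded the gap between the highest and lowest mouse of either group, and both passed after axis adjustment.

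Lipid genes were divided in the same way. Of 16 genes of cholesterol synthesis and SREBP2 targets 9 rose and 6 fell. Msmo1 and Dhcr7, enzymes late in the pathway, changed by 2.01 ± 0.17 and -2.20 ± 0.19 log2, the sterol carrier gene Stard4 rose by 1.93 log2 and Mvk, mevalonate kinase, fell by 2.07 log2. Of 17 fatty acid oxidation genes 8 rose and 8 fell. Hsdl2, Etfdh and Acadm, the medium-chain acyl-CoA dehydrogenase, rose by 2.60, 2.09 and 1.98 log2, and Acaa1a, a peroxisomal thiolase, fell by 1.23 log2.

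Immediate early genes, which answer growth factors and stress within minutes, included 4 of 22 that rose and 13 that fell. Junb read 6.30, 5.94, 6.75, 6.84 and 6.57 log2 at 5 ppm and 9.18, 8.40, 7.95, 8.45 and 8.55 log2 in air, a fall of 2.02 ± 0.18 log2. Ier2, Jund and Jun fell by 1.82, 1.35 and 1.28 log2, Klf6 rose by 1.22 log2, and Fos was at 0.11 ± 0.27 log2 and did not pass (adjusted p = 0.72, limma). Among 15 glucocorticoid-responsive genes 3 rose and 6 fell. The receptor gene Nr3c1 rose by 2.59 ± 0.18 log2, with 3 of 5 probe sets called higher and 1 lower. Its target Per1 fell by 1.92 log2, Cebpd fell to between 8.66 and 9.43 log2 at 5 ppm, against 10.08 to 11.01 log2 in air, and Klf9 rose by 1.67 log2 but was at -0.40 log2, not called, after axis adjustment.

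The circadian clock was read in the morning only, and the sample labels give no hour for each mouse. Arntl, the activator BMAL1, read 6.54, 6.77, 7.05, 6.89 and 6.27 log2 at 5 ppm and 5.58, 5.63, 5.01, 4.77 and 5.66 log2 in air, a rise of 1.38 ± 0.40 log2. Dbp, an output factor that oscillates in antiphase to Arntl, read 5.07, 4.88, 4.43, 6.29 and 6.81 log2 at 5 ppm and 5.23, 5.75, 7.79, 8.51 and 7.23 log2 in air. Dbp was scattered within each group and its change of -1.41 ± 0.85 log2 did not pass (adjusted p = 0.13, limma). It did pass when mouse number was fitted as a block, as given below. Of 15 clock activators and repressors 6 rose and 6 fell, with Rora (2.97) and Clock (2.09) higher and the kinase genes Csnk1d (-0.87) and Csnk1e (-0.83) lower. The output factors Nfil3 and Tef fell by 0.99 and 0.78 log2, each with overlapping groups, and the call of Nfil3 was lost when any 1 of 6 mice was left out (adjusted p = 0.0512 to 0.117).

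Matrix and vessel genes were called in both directions. Of 19 collagens and collagen-processing enzymes 7 rose and 10 fell, with a median of -0.87 log2. Col1a1, the main fibrillar collagen chain, read 7.33, 6.89, 7.20, 7.97 and 7.82 log2 at 5 ppm and 9.42, 8.94, 8.66, 8.88 and 8.39 log2 in air, a fall of 1.42 ± 0.19 log2. It was at 0.18 log2, not called, after axis adjustment. Col4a2 and Col4a3, chains of basement membrane collagen, changed by -1.01 ± 0.09 and 2.20 ± 0.19 log2, and Col18a1 and Col13a1 fell by 1.98 and 1.57 log2. Of 16 elastic fibre genes 5 rose and 7 fell. Eln, which encodes elastin, read 8.49, 8.56, 8.81, 9.45 and 8.72 log2 at 5 ppm and 10.61, 10.11, 9.61, 9.91 and 9.99 log2 in air, a fall of 1.24 ± 0.21 log2. Emilin1, Ltbp4, Ltbp2 and the cross-linking enzyme gene Loxl1 fell by 2.04, 1.88, 1.82 and 1.54 log2. Of 20 fibroblast and matrix turnover genes 11 rose and 8 fell. Tgfb1 fell by 2.16 log2, and Vim, vimentin, rose by 1.31 log2. Postn, periostin, rose by 2.36 log2 but was at -0.15 log2, not called, after axis adjustment.

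Of 13 smooth muscle contractile genes 4 rose and 8 fell, with Des, desmin, lower by 1.73 log2, Cnn2 lower by 1.07 log2, and Mylk, the myosin light chain kinase, higher by 0.71 log2. Endothelial genes split 10 higher and 11 lower of 22. Plvap, which forms the diaphragms of capillary pores, read 10.36, 10.15, 10.39, 10.59 and 10.25 log2 at 5 ppm and 11.97, 12.12, 11.90, 11.90 and 11.72 log2 in air, a fall of 1.58 ± 0.12 log2. The angiopoietin receptor gene Tek rose by 2.01 ± 0.16 log2 while Tie1, its partner on the same cells, fell by 1.46 ± 0.11 log2. Pecam1, the pan-endothelial junction protein, rose by 1.35 ± 0.17 log2 and Eng, a TGF-beta co-receptor, fell by 1.35 ± 0.11 log2.

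In most lists the opposite signs ran with the genomic span of the genes, the distance from start to end in RefSeq build GRCm38.p6. Among 9811 genes with a span and a mean of at least 5 log2, the median change against air was -0.88 log2 in the quintile with the shortest spans (up to 7.83 kb) and then -0.63, 0.01 and 0.62 log2, up to 0.88 log2 in the quintile with the longest. In the shortest quintile 19.3% of genes were called higher and 67.1% lower, and in the longest 65.5% higher and 22.2% lower. The median level in air fell from 8.34 log2 in the shortest quintile to 6.74 log2 in the longest, so span ran with level as well. Spearman's rho between span and change was 0.375 across these genes, which are not independent replicates and share the same arrays, and 0.312 across all 17055 genes with a span. Over those 17055 genes the quintile medians ran from -0.40 log2 for the shortest to 0.19 log2 for the longest. Over the 731 measured list genes with a span, the 301 that rose had a median span of 27.1 kb and the 276 that fell 9.42 kb. The risen members had the longer median span in 30 of the 42 lists with members called both ways. They had the shorter one in the rest, among them the splicing factors (14.3 against 21.5 kb) and the chaperones (13.6 against 23.4 kb), where few members fell. Lists with more falls were among the rest too, such as the platelet genes (8.12 against 10.2 kb, 11 of 14 lower). For the type 2 markers the spans were 4.90 against 14.4 kb, with 7 of 16 lower. The axis-adjusted medians over the quintiles were -0.26, -0.19, -0.01, 0.14 and 0.15 log2.

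An index of this pattern was taken on each array as the median deviation from the all-array mean in the longest quintile minus that in the shortest. It averaged -0.95 ± 0.26 log2 in air and -1.02 ± 0.18 log2 in the 1 ppm mice (SD, n = 5 each). It was 0.68 ± 0.11 log2 in the 5 ppm mice, then 0.36 ± 0.14 log2 for 10 ppm, 0.14 ± 0.19 log2 for 20 ppm, 0.29 ± 0.10 log2 for 40 ppm and 0.37 ± 0.17 log2 for 120 ppm. The air and 1 ppm arrays lay between -1.21 and -0.52 and those of the higher concentrations between -0.13 and 0.75, with 4 of the 5 ppm mice at the top of the scale.

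**Figure D4:**
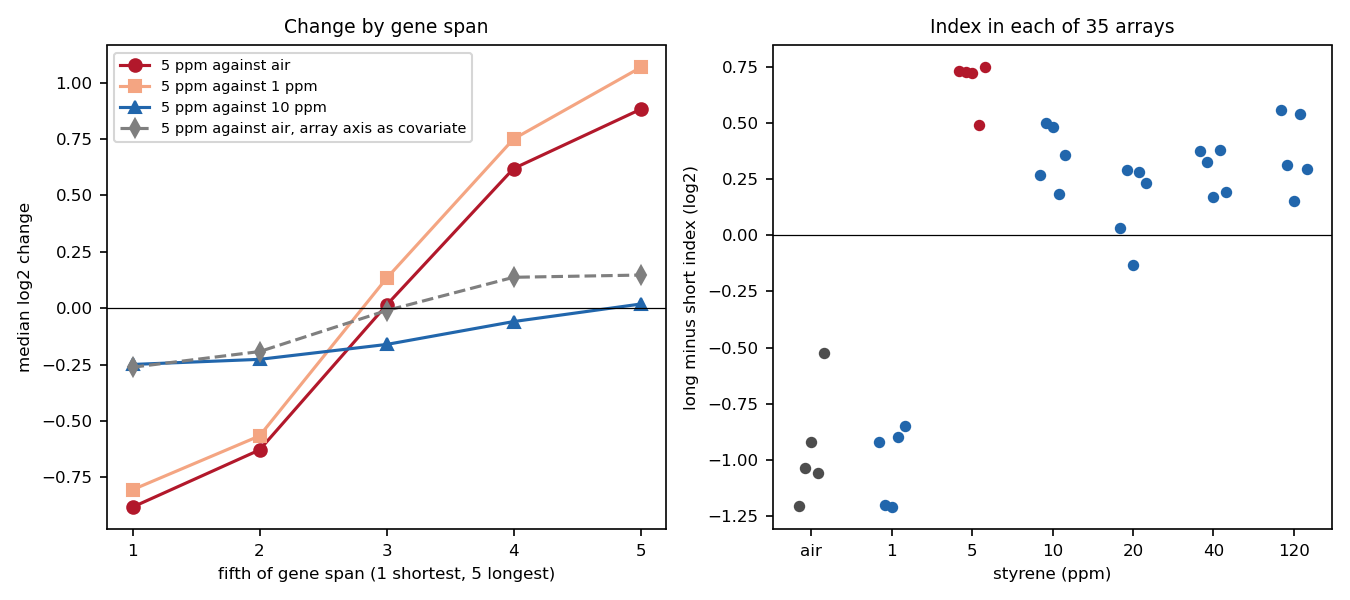
Left, median log2 change over genes with a mean of at least 5 log2 in each quintile of gene span, from the shortest (1) to the longest (5), for 5 ppm against air, 1 ppm and 10 ppm and for 5 ppm against air after axis adjustment. Right, the long minus short index (log2) of each of the 35 arrays by styrene concentration, with air and 1 ppm at -1.21 to -0.52 and 5 ppm at 0.49 to 0.75.

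Against the 10 ppm group, 4658 genes (27.2%) passed, 1685 (9.86%) higher at 5 ppm and 2973 (17.4%) lower, with a median over all genes of -0.10 log2. Both groups are also compared with the same air mice, so the comparison is a separate contrast and not an independent repeat. Without mice 2 and 5 2034 genes passed, 897 higher and 1137 lower. That fit has fewer mice, no other pair was left out, and leaving out 1 mouse at a time gave 3359 to 4996 genes. The largest rises, taken like the falls among called genes without overlap between the groups, were those of Trim12c, Ankrd12, Gm14322, Iigp1 and Zfp51. The zinc finger gene Zfp51 read 6.10, 5.93, 6.29, 6.13 and 6.19 log2 at 5 ppm and 3.15, 4.79, 3.88, 3.18 and 3.93 log2 at 10 ppm, a rise of 2.34 ± 0.24 log2 (adjusted p = 1.52e-07, limma). Ankrd12, a partner of nuclear receptor coactivators, read 8.37, 8.41, 8.17, 7.42 and 8.51 log2 at 5 ppm and 5.24, 6.63, 6.43, 5.15 and 5.54 log2 at 10 ppm, a rise of 2.38 ± 0.29 log2. Mki67 read 3.81, 4.23, 4.39, 3.80 and 4.07 log2 at 10 ppm, and its rise at 5 ppm was 1.95 ± 0.15 log2 (adjusted p = 8.28e-10, limma). For these 3 genes the 5 ppm mice stood above all 10 ppm mice, which the choice required for Zfp51 and Ankrd12. The air means were 3.51 for Zfp51, 5.92 for Ankrd12 and 3.79 log2 for Mki67.

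Of the 29 mitosis genes 13 were higher at 5 ppm than at 10 ppm and 0 lower by limma at an adjusted p under 0.05. Of 14 chromatin genes 9 were higher and 2 lower, of 24 splicing genes 12 higher and 3 lower, and of 25 DNA repair genes 8 higher and 2 lower. Of the 11 GTPases 7 were higher with a median of 0.94 log2, but without mice 2 and 5 4 were higher and the median was 0.20 log2. The largest falls were those of Tmem88, an inhibitor of Wnt signalling, Ccn5, a matricellular protein, Gamt, which makes creatine, 1110064A23Rik and Dhcr7. Dhcr7, the last enzyme of cholesterol synthesis, read 5.33, 5.24, 5.16, 5.36 and 5.23 log2 at 5 ppm and 6.40, 6.02, 6.36, 6.21 and 6.21 log2 at 10 ppm, a fall of 0.97 ± 0.19 log2. Of 16 cholesterol genes 0 were higher and 6 lower, of 19 collagens 0 and 7, and of 22 endothelial genes 2 and 10. Plvap at 10 ppm lay between 10.86 and 11.24 log2 and was lower at 5 ppm by 0.72 ± 0.12 log2. After axis adjustment 450 genes (2.63%) passed.

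**Figure D5:**
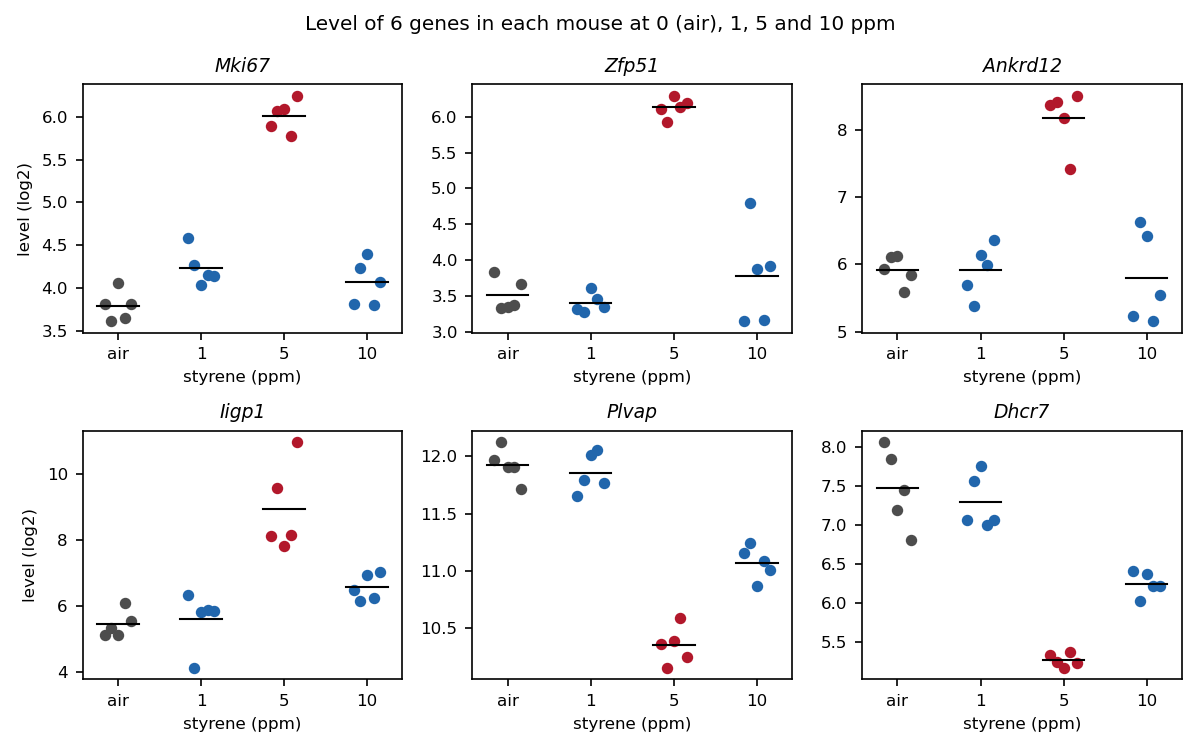
Level (log2 signal) of Mki67, Zfp51, Ankrd12, Iigp1, Plvap and Dhcr7 in each mouse in air and at 1, 5 and 10 ppm, with lines at group means. Mki67 averages 3.79 log2 in air, then 4.23, 6.01 and 4.06 log2 at the 3 concentrations, and the 5 ppm mice stand apart from every other group shown in all 6 genes.

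Against the 1 ppm group 13606 genes (79.6%) passed, 5313 (31.1%) higher at 5 ppm and 8293 (48.5%) lower, with a median of -0.23 log2. The largest rises, again taken like the falls among called genes without overlap between the groups, were those of Hltf, Tax1bp1, Cops2, Akr1c14 and Uba3. Akr1c14, a hydroxysteroid dehydrogenase, read 9.52, 9.94, 9.71, 9.05 and 9.97 log2 at 5 ppm and 6.01, 5.05, 6.30, 6.43 and 6.78 log2 at 1 ppm, a rise of 3.52 ± 0.28 log2. Uba3, the catalytic subunit that activates NEDD8, rose by 3.49 ± 0.26 log2. The largest falls were those of Gp1bb (-3.06), Slc4a1 (-2.80), Gnmt, a glycine methyltransferase (-2.78), Itga2b (-2.74) and Cyp26b1, which degrades retinoic acid (-2.68). Gp1bb at 1 ppm lay between 7.96 and 8.89 log2, apart from its range of 4.89 to 5.97 log2 at 5 ppm. Of the 11 GTPases 10 were higher at 5 ppm than at 1 ppm and 1 was lower, and of the 23 ciliated cell markers 18 were higher and 2 lower. After axis adjustment 3236 genes (18.9%) passed.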

How the data were processed

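The authors deposited 1 value per probe set and array on the log2 scale. RMA and Partek are named, with no version or role, per the submitters' processing notes, and the genome build of the processing is not given in the sources used here. Of 45037 probe sets 28898 had exactly 1 gene symbol in the platform annotation, 551 had several and 15588 had none. Each of 17097 genes was taken from its probe set with the highest mean over all 35 arrays.

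Means of the 7 groups were fitted with limma 3.58.1 in R 4.3.3 (lmFit, eBayes, two-sided moderated test), and p-values were adjusted by Benjamini-Hochberg over all 17097 genes. A gene was called at an adjusted p under 0.05. The fit was also run on simulated arrays with independent noise for each gene and a small set of changed genes. Such arrays hold no array axis and no shift shared by many genes, so the run cannot bear on the calls made here. Members and gene lists were chosen with earlier results of these data known. Named genes were the 10 largest rises and falls without overlap, the 4 called members of each of 43 lists with the smallest adjusted p, the 5 largest rises and falls against 10 ppm and 1 ppm, a set of marker genes, and list members that did not pass or went against their list. Of 836 list entries 740 were measured.

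Alternatives were the 2 groups alone, the replicate block, the mean of probe sets, quantile normalization, median centring, dim genes left out, array weights, a trended prior, the interquartile range or the array axis as a covariate, stricter thresholds, each mouse left out, and 1 ppm in place of air. Leaving out 5 ppm mice 2 and 5 was added after seeing the data. The mouse numbers were not taken as pairs, since the labels give them no shared origin.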

Additional observations from a re-analysis of the deposited data

Results flagged for a closer look

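Of 476 groups of 5 mice examined, 25 held 1 mouse whose gap to its nearest neighbour was a larger part of the group's range than Dixon's 95% limit for 5 samples allows. Chance gives such a mouse in about 1 in 20 groups. All 25 are single values on the log2 scale.

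Air mouse 5 accounted for 10 of them. It was the highest air mouse for Lin7c at 6.41 (group median 5.79), Tax1bp1 at 7.36 (6.53), Cd36 at 10.26 (9.70), Mdm2 at 6.24 (5.75) and Hsdl2 at 4.99 (4.46). It was also the highest for Klf9 at 10.10 (9.16). It was the lowest air mouse for Tapbp at 11.53 (11.65), Ercc1 at 9.12 (9.42), Trim12c at 4.01 (6.41) and Tmem88 at 8.20 (8.76). On the long minus short index it was at -0.52, the nearest of the air arrays to the 5 ppm arrays. Among the other air mice, mouse 1 was high for Tppp3 at 12.60 (12.04), and mouse 2 was low for Top2a at 3.54 (3.85) and for Mmp9 at 6.39 (7.33).

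At 5 ppm, mouse 4 was low for Lin7c at 9.06 (9.37) and Nfe2l2 at 9.78 (10.20) and high for Rpl8 at 12.17 (11.85) and Uqcrc1 at 9.10 (8.64). Its long minus short index was 0.491, against a group median of 0.726. Mouse 1 was high for Cyp1a1 at 6.18 (4.78), Srsf3 at 10.43 (10.32) and Cebpd at 9.43 (8.82). Mouse 5 was high for Hba-a1 at 13.76 (13.65) and low for Ltbp4 at 7.57 (7.87). Mouse 3 was high for Tek at 10.87 (10.79) and mouse 2 for Hsdl2 at 7.39 (7.07).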

How the results depend on the processing

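Against air the number of genes called moved most with covariates. It was 5836 (2318 higher, 3518 lower) with the interquartile range and 2777 (1123 higher, 1654 lower) with the array axis. Leaving out dim genes, which tests fewer genes, gave 8680 called and 4393 lower, and the 1.5-fold threshold gave 4739 lower. Against 10 ppm the array axis gave 450 (196 higher, 254 lower), an adjusted p under 0.01 gave 2639 (1045 higher, 1594 lower), and leaving out 5 ppm mice 2 and 5 gave 2034 (897 higher, 1137 lower). The 1.5-fold threshold gave 1473 called and 349 lower, and the interquartile range gave 1118 higher. Against 1 ppm the interquartile range gave 2920 (953 higher, 1967 lower), the array axis 3236 (1606 higher, 1630 lower), leaving out dim genes 8704 called and 4183 lower, and the 1.5-fold threshold 4905 lower. The cause of the moves with the covariates was not tested. Leaving out 1 mouse at a time gave 12720 to 13177 genes against air (4898 to 5068 higher, 7727 to 8109 lower), 3359 to 4996 against 10 ppm (1235 to 1700 higher, 2124 to 3315 lower) and 13193 to 13434 against 1 ppm (5215 to 5299 higher, 7933 to 8184 lower).

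With the replicate block 13223 genes were called against air (5081 higher, 8142 lower), 4698 against 10 ppm (1697 higher, 3001 lower) and 13623 against 1 ppm (5328 higher, 8295 lower), and no call of a named gene was lost. Of the 10 uncalled named genes 2 gained a call with the block, Cyp2b10 at 0.24 log2 (adjusted p = 0.0344, limma) and Dbp at -1.41 log2 (adjusted p = 0.0133, limma). Mice with the same number had correlations of 0.0046 to 0.165 between 5 ppm and air, and 3 of 5 correlated best with their own number, a hint from the data and not from the design. The numbers were not taken as pairs because the labels give them no shared origin and not every correlation was over 0.1.

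Of 226 called genes examined singly, 87 kept their call and direction with the array axis as a covariate. Another 113 lost the call with the sign unchanged, and 26 turned in sign and lost the call as well. The turned values were Cops2 -0.38, Ckm 0.91, Scgb1a1 -0.034, Foxj1 0.48, Akap5 -0.22, Irf7 0.12, Irf1 0.070, Mrc1 -0.053, Ppbp -0.71, Ube2c 0.37, Hsp90b1 -0.17, Bag3 0.44, Col1a1 0.18, Postn -0.15, Acta1 0.32, C1qb 0.26, Ccl17 0.53, Gnmt 0.10, Il2rb 0.043, Il33 -0.12, Itga8 -0.11, Klf9 -0.40, Mpo 0.19, Nfil3 1.38, Tfrc -0.23 and Wee1 -0.022 log2. Cyp2e1, not called before, was at 4.47 log2. With the interquartile range 163 kept their call, and Il33 (-0.052), Mpo (0.15) and Nfil3 (0.51) turned, none of them called in that fit. The number of arrays limits the precision of every value.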
